A study of Mus musculus with 48 samples.

Results

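The genes described here are 10 transcription factors named as organ-restricted in endothelium, which are Foxf1, Tbx2, Tbx3, Tbx4, Tbx5, Tbx20, Gata2, Gata6, Meox2 and Tcf15. They were chosen by gene symbol, and all 10 were found among the 15569 genes of the deposited count table. RNA was sequenced from endothelial cells of Abcg2CreERT;ROSATdTomato mice, in which tamoxifen activates a Cre recombinase driven by Abcg2, a drug transporter gene, and cells with active Cre switch on the red protein TdTomato. All mice, including those that gave the TdTomato- cells, carried both alleles and received 50 mg/kg tamoxifen 24 hours before collection. The sort took CD31+CD45-Ter119- cells (positive for an endothelial surface protein, negative for a leukocyte and an erythroid one) and split them by colour. The submitters call the TdTomato+ fraction vascular endothelial stem cells (VESC) and the TdTomato- fraction mature endothelium. Matched pairs of fractions came from 5 combinations of organ and age, which were lung at postnatal day 1 (P1; 5 pairs), heart at P1 (4 pairs used), skeletal muscle at postnatal day 6 (P6; 5 pairs), heart at 6 weeks (6W; 5 pairs) and skeletal muscle at 6 weeks (4 pairs). TdTomato marks cells in which Cre was active within the day before collection, so the fractions are defined by Abcg2 promoter activity and not by a test of stem cell function. The sources used here do not say if each replicate was a single mouse or pooled mice, so the p-values reflect only how much these samples vary.

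Endothelial cells share a common programme but differ between organs, and transcription factors set during organ formation are part of that difference. FOXF1 is a forkhead protein of the lung mesenchyme and lung vessels, and its loss in humans causes a failure of alveolar capillary formation. The T-box proteins bind DNA through a shared domain: TBX2 and TBX3 act mostly as repressors, TBX4 and TBX5 are known from limb and lung (and TBX5 also from heart) development, and TBX20 is known from heart muscle and endocardium. GATA2 and GATA6 are zinc finger proteins of blood vessels, blood and heart, and MEOX2 (a homeodomain protein) and TCF15 (a basic helix-loop-helix protein) form a pair known in mouse heart capillaries for driving fatty acid uptake genes.

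Levels are given as CPM, which are read counts scaled to each library's total with trimmed mean (TMM) factors. Total counts ran between 17512843 and 27622937 per library in 46 libraries. All 12 pan-endothelial marker genes stood at 1 CPM or more in every group. The first P1 heart pair was not used, since the labels record that its TdTomato+ library failed a quality check. The P1 lung TdTomato+ libraries of pairs 6, 7 and 8 held much RNA of 10 lung epithelial marker genes, with summed levels of 24203, 43765 and 62976 CPM, against 1375 and 2220 CPM in TdTomato+ pairs 1 and 5 and between 1641 and 7447 CPM in the TdTomato- libraries. The sum of 8 leukocyte markers was 1643, 2337 and 3396 CPM in the same 3 libraries, against 157 and 93.4 CPM in TdTomato+ pairs 1 and 5 and between 78.6 and 502 CPM in the TdTomato- libraries. RNA integrity numbers of the P1 heart TdTomato+ libraries were between 3.6 and 8.5, against between 8 and 9.2 in their TdTomato- partners. In 6W muscle they were between 6.8 and 7.9 in TdTomato+ and between 9.2 and 10 in TdTomato- libraries. Their mean was lower in TdTomato+ libraries in every combination of organ and age. P1 lung and P1 heart carry different entries in the run sheets' batch column, which is not explained there, so organ and this column cannot be told apart at P1. In sorted bulk RNA, fewer cells of a type and less RNA per cell cannot be told apart.

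The positions are those of the deposited table, on mouse build mm10. Tbx2 (chr11:85832615-85841948) and Tbx4 (chr11:85890063-85916097) are neighbours on chromosome 11, and Tbx3 (chr5:119670862-119684724) and Tbx5 (chr5:119834663-119885218) are neighbours on chromosome 5. The others, with Gata6 given further on, are Foxf1 (chr8:121084386-121088154), Tbx20 (chr9:24720812-24774303, minus strand), Gata2 (chr6:88198664-88207032), Meox2 (chr12:37108546-37179528) and Tcf15 (chr2:152143609-152149096). RefSeq promoter entries (build GRCm38.p6) matched 4 of the 10. Of these, 3 are shown as the 250 bases upstream of the start site, 5′ to 3′ on the gene's own strand, because their genes had unlike patterns: Meox2 was high in heart and muscle and low in lung, Tbx20 was detected in few libraries outside the heart, and Gata2 was high everywhere.
Meox2 (chr12:37108290-37108539, plus strand): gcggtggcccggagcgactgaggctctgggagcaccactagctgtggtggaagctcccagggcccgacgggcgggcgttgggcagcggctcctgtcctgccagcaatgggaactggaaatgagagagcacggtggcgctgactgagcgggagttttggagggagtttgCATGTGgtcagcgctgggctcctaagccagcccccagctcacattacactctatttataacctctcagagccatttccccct
Tbx20 (chr9:24774304-24774553, minus strand): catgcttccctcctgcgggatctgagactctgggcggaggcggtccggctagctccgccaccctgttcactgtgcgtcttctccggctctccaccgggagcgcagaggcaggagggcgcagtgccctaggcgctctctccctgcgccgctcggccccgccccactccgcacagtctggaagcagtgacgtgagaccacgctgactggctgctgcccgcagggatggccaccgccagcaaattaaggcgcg
Gata2 (chr6:88198414-88198663, plus strand): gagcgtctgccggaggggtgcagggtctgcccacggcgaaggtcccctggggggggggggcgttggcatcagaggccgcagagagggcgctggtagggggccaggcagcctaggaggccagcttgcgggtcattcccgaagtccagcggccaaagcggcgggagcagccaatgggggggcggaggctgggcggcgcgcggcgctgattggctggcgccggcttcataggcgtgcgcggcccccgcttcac
The capitals mark motif matches. Both strands were searched for 6 motifs: the E-box CANNTG that basic helix-loop-helix proteins bind, the GATA motif GATAA or TTATC, the ETS motif CGGAAG or CTTCCG, the T-box motif AGGTGT or ACACCT, the homeodomain motif TAATTA and the forkhead motif GTAAACA or TGTTTAC. Of 32851 RefSeq promoter windows of this length, 66.2% held the E-box, 22.6% the GATA motif, 13.6% the ETS motif, 11.8% the T-box motif, 4.84% the homeodomain motif and 3.17% the forkhead motif. The Meox2 window held 1 E-box, CATGTG, 82 bases upstream of the start site, and none of the other motifs. In the Tbx20 and Gata2 windows none of these letters occurred. The windows were 62%, 68.8% and 74% G or C for Meox2, Tbx20 and Gata2, against a median of 52.4% over all windows. Gata2 has another RefSeq promoter entry, not shown, at chr6:88193641-88193890. That window was 67.2% G or C and also held none of the motifs.

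The name organ-restricted held for some of the 10 and not for others. Foxf1 and Tbx4 were concentrated in lung, and Tbx20 was absent from all 18 muscle libraries. Gata2, Gata6, Tbx2, Tbx3, Meox2 and Tcf15 had reads in all 46 libraries, so for these 6 the organs differed in amount and not in presence. Foxf1 also had reads in all 46, although its heart libraries lay between 0.0422 and 4.49 CPM.

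**Figure D1:**
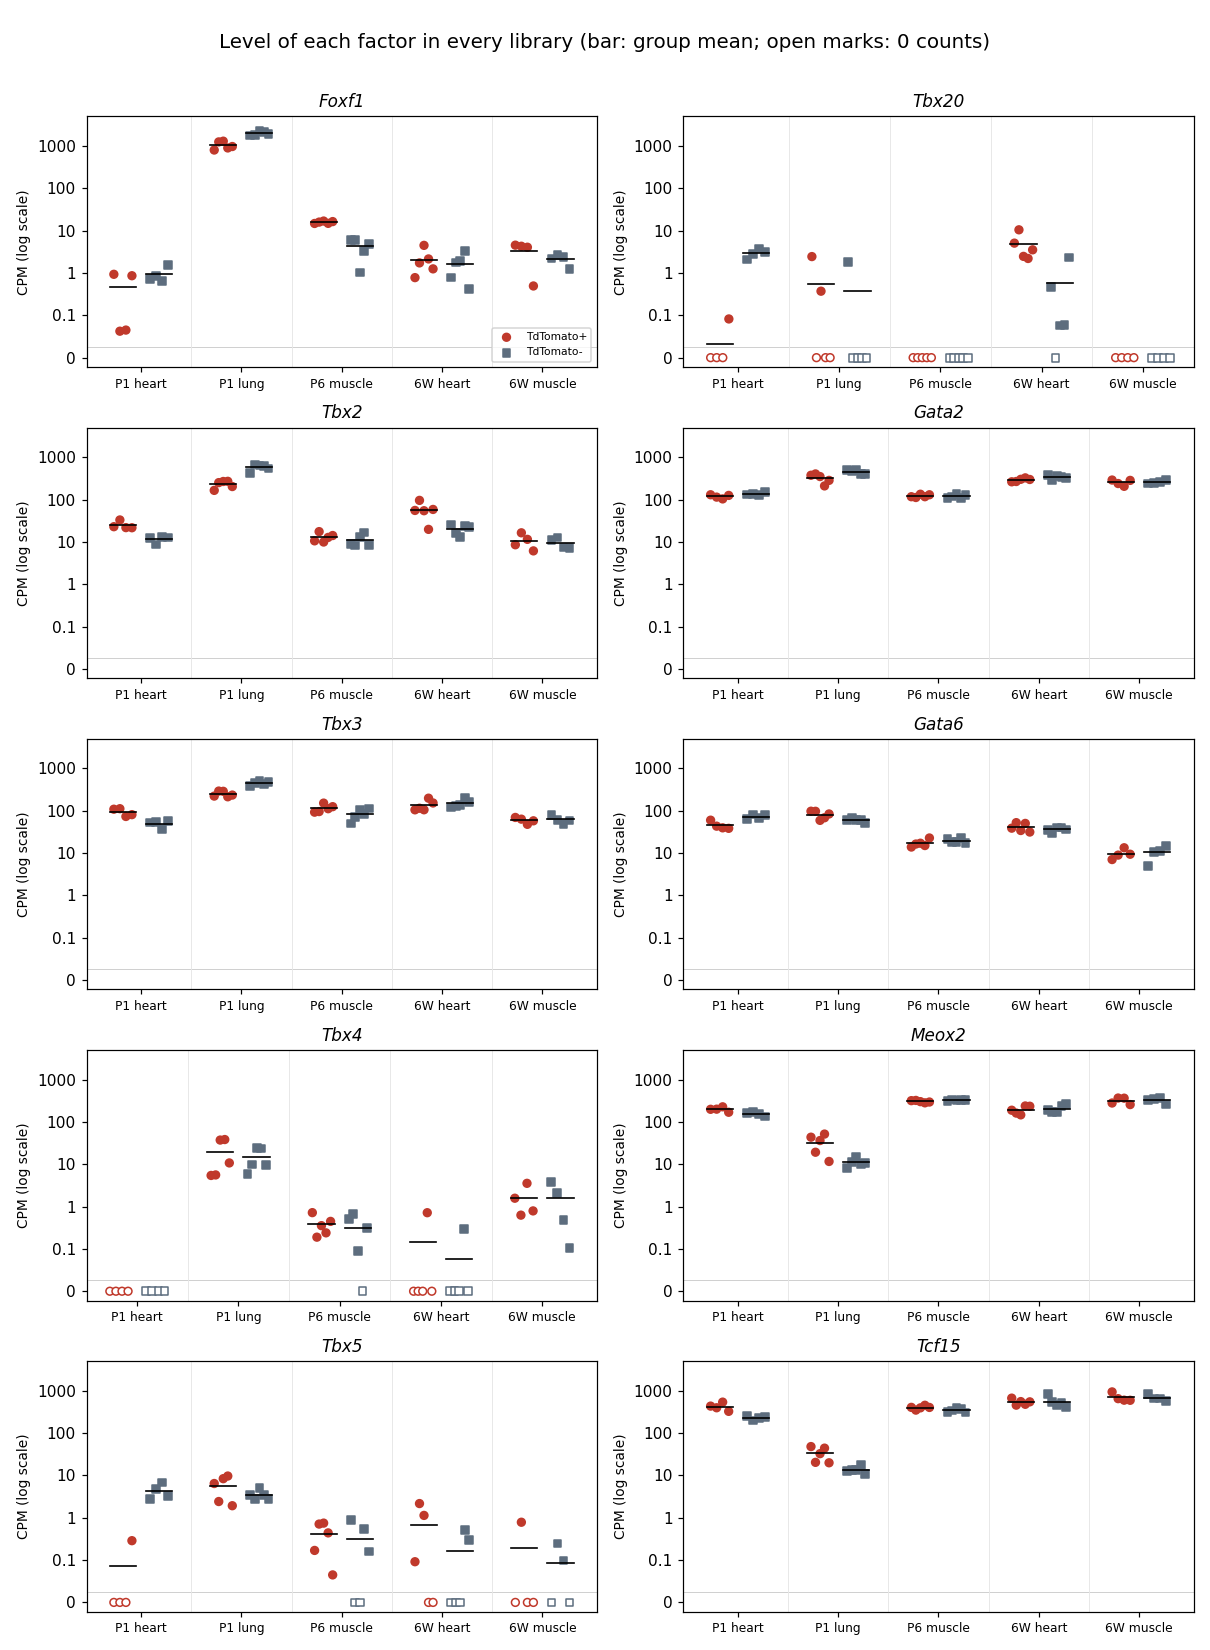
Level of each of the 10 factors (CPM on a log axis) in every one of the 46 libraries, in 1 panel per gene with groups on the x axis, TdTomato+ left of TdTomato- within each organ and age; bars are group means and open marks are libraries with 0 counts. Foxf1 stands at 804 CPM or more in all 10 lung libraries and at 16.9 CPM or less elsewhere, while Meox2 and Tcf15 are lowest in the lung libraries.

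Foxf1 was the lung factor of the set. It stood at 804, 1250.0, 1300.3, 899.6 and 972 CPM in lung TdTomato+ libraries, and at 1772, 1826, 2255, 2127 and 1902 CPM in lung TdTomato- libraries. Every lung TdTomato- value exceeded every lung TdTomato+ value. In P6 muscle it was low but present, at 14.8 to 16.9 CPM in TdTomato+ libraries and 1.03 to 6.14 CPM in TdTomato- libraries. Heart libraries of both ages lay between 0.0422 and 4.49 CPM, and 6W muscle between 0.493 and 4.54 CPM. Its antisense neighbour Fendrr, a noncoding RNA whose gene starts on the opposite strand 1275 bases away, averaged 228 CPM in lung TdTomato+ and 407 CPM in lung TdTomato- libraries and no more than 2.64 CPM in any other group. The exons of the 2 genes do not overlap in the table.

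Tbx4, a limb and lung mesenchyme factor, was low in lung and at or near 0 in heart. Its lung TdTomato+ values were 5.43, 5.59, 37.2, 38.3 and 10.7 CPM in pairs 1, 5, 6, 7 and 8, and its lung TdTomato- values were 5.95, 9.84, 24.3, 23.5 and 9.67 CPM in the same order. Both fractions were high in pairs 6 and 7 and low in the others, so the spread lay between pairs and not between fractions. Summed levels of 11 fibroblast marker genes were also highest in lung TdTomato+ pairs 6 and 7, at 1630 and 2837 CPM, against 394 to 808 CPM in the other lung TdTomato+ libraries. In TdTomato- libraries the same sum was 753, 266, 648, 830 and 486 CPM in pairs 1, 5, 6, 7 and 8. Pair 1 thus stood above pair 6 there, while its Tbx4 level stood below. The sum of 10 pericyte and smooth muscle markers was highest in pairs 6 and 7 in both fractions. It was 94.0, 79.8, 387, 746 and 292 CPM in TdTomato+ and 90.4, 68.6, 182, 309 and 119 CPM in TdTomato- libraries of the same pairs. The part of fibroblast, pericyte or smooth muscle RNA in the Tbx4 level was not tested. All 8 P1 heart libraries had 0 Tbx4 counts, and of the 10 6W heart libraries only those of pair 5 had any, at 0.716 CPM in TdTomato+ and 0.291 CPM in TdTomato- cells. Muscle held traces, between 0 and 0.719 CPM at P6 and between 0.105 and 3.83 CPM at 6W.

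The repressors Tbx2 and Tbx3 were highest in lung and were present in every library. Tbx2 averaged 231 ± 45.7 CPM in lung TdTomato+ and 576 ± 96.0 CPM in lung TdTomato- libraries (SD, n = 5 each). It averaged 24.7 ± 5.47 CPM in TdTomato+ and 11.8 ± 2.098 CPM in TdTomato- P1 heart (SD, n = 4 each), and 56.6 ± 26.8 CPM in TdTomato+ and 20.4 ± 5.26 CPM in TdTomato- 6W heart (SD, n = 5 each). In the 4 muscle groups Tbx2 averaged between 9.59 and 13.0 CPM, and their ranges overlapped. Tbx3 had a flatter profile. It averaged 249 ± 37.0 CPM in lung TdTomato+ and 446 ± 53.3 CPM in lung TdTomato- libraries (SD, n = 5 each), and the other 8 groups averaged between 49.8 and 149 CPM.

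The cardiac T-box genes Tbx5 and Tbx20 were scarce. In P1 heart, Tbx5 had 0, 0, 0 and 0.287 CPM in TdTomato+ libraries, against 2.75, 4.75, 6.81 and 3.25 CPM in TdTomato- libraries. Tbx20 followed the same order there, with 0, 0, 0 and 0.0821 CPM in TdTomato+ and 2.09, 2.75, 3.78 and 3.17 CPM in TdTomato- libraries. In 6W heart, Tbx20 stood at 5.08, 10.5, 2.47, 2.20 and 3.53 CPM in TdTomato+ libraries, against 0.462, 0, 0.0574, 0.0581 and 2.34 CPM in TdTomato- libraries. The TdTomato+ values of Tbx20 were thus the lower ones in all 4 pairs at P1 and the higher ones in all 5 pairs at 6W. Outside the heart, Tbx20 had 0 counts in all 18 muscle libraries and in 7 of 10 lung libraries; the remaining lung values were 2.44 and 1.84 CPM in the TdTomato+ and TdTomato- libraries of pair 1 and 0.372 CPM in TdTomato+ pair 6. Tbx5 lay between 1.92 and 9.67 CPM in lung TdTomato+ and between 2.73 and 4.97 CPM in lung TdTomato- libraries, and at 2.16 CPM or less in 6W heart and in muscle.

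Gata2, needed for blood stem cells and for endothelial identity, was high throughout. It averaged 324 ± 77.5 CPM in lung TdTomato+ and 457 ± 51.8 CPM in lung TdTomato- libraries (SD, n = 5 each). P1 heart averaged 118 ± 11.8 CPM in TdTomato+ and 136 ± 9.17 CPM in TdTomato- libraries (SD, n = 4 each), and P6 muscle 122 ± 9.38 CPM and 119 ± 11.6 CPM in the same fractions (SD, n = 5 each). The 6W groups stood higher than these, at 290.3 and 339 CPM in TdTomato+ and TdTomato- heart and at 254 and 257 CPM in TdTomato+ and TdTomato- muscle. Gata6 (chr18:11052510-11085635), a GATA factor of heart and lung, averaged between 60.5 and 81.0 CPM in lung and between 36.08 and 72.8 CPM in heart, whereas muscle averaged 17.0 and 19.7 CPM in TdTomato+ and TdTomato- cells at P6, and 9.67 and 10.5 CPM in TdTomato+ and TdTomato- cells at 6W. A noncoding gene on the opposite strand, 1010001N08Rik, shares 58 exon bases with Gata6 and averaged 2.97 CPM or less in every group. The sources used here give no strand setting for the counting, so reads in those bases cannot be told apart.

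Meox2 and Tcf15, the fatty acid pair of heart capillaries, had the opposite profile to Foxf1. Meox2 had 43.5, 19.2, 36.3, 51.6 and 11.6 CPM in lung TdTomato+ libraries of pairs 1, 5, 6, 7 and 8, and 8.03, 11.5, 14.9, 10.11 and 10.5 CPM in their TdTomato- partners. Heart libraries lay between 135 and 266 CPM and muscle libraries between 257 and 367 CPM, so no lung library reached the lowest of either organ. Tcf15 had 48.0, 20.4, 32.7, 44.1 and 19.9 CPM in lung TdTomato+ libraries in the same order, and 12.5, 13.6, 13.3, 17.4 and 11.02 CPM in lung TdTomato- libraries. Its heart libraries lay between 197 and 822 CPM and its muscle libraries between 308 and 939.8 CPM. The 2 genes followed one another closely across the 46 libraries (Pearson r = 0.95 of log2 CPM, given as a description, since libraries share organs and pairs).

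Between genes, levels can be compared only per length, on the authors' log2 RPKM scale, which corrects for gene length and library size. Tcf15 ranked first of the 10 in all 8 heart and muscle groups, with mean log2 RPKM levels between 7.92 and 9.50. Foxf1 ranked first in both lung groups, at a mean log2 RPKM level of 8.71 ± 0.30 in TdTomato+ and 9.65 ± 0.15 in TdTomato- libraries (SD, n = 5 each). In lung TdTomato- cells Tcf15 stood at 3.84 and Meox2 at 2.19 on the same log2 RPKM scale, below Tbx2 at 7.31, Gata2 at 7.12, Tbx3 at 6.51 and Gata6 at 4.23.

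Organs taken at the same age were compared within each fraction, so that lung was set against heart at P1 and heart against muscle at 6W. At P1, 9 of the 10 differed between lung and heart in TdTomato+ cells, where 34.5% of all tested genes did, and 7 differed in TdTomato- cells, where 36.9% of genes did (edgeR quasi-likelihood test with Benjamini-Hochberg adjustment, called below 0.05). These genes were chosen for organ differences, so the counts describe them and support nothing further. Foxf1 averaged 1045 ± 219 CPM in lung TdTomato+ and 0.470 ± 0.493 CPM in heart TdTomato+ cells (SD, n = 5 and 4), a log2 fold change of 11.15 ± 0.68 (SE; edgeR adjusted p = 7.54e-11). In TdTomato- cells its log2 fold change was 11.02 ± 0.51 (SE; edgeR adjusted p = 5.74e-14). Tbx4 was at least 575-fold higher in lung than in heart in TdTomato+ cells and at least 493.1-fold higher in TdTomato- cells, since heart had 0 counts and the bound uses 3 counts over the group. Tbx2 and Tbx3 were higher in lung in both fractions, by 3.22 ± 0.34 and 1.42 ± 0.20 on the log2 scale in TdTomato+ and by 5.62 ± 0.27 and 3.16 ± 0.22 in TdTomato- cells (SE). Gata2 rose in lung by 1.46 ± 0.15 in TdTomato+ and by 1.75 ± 0.10 in TdTomato- cells (log2, SE).

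**Figure D2:**
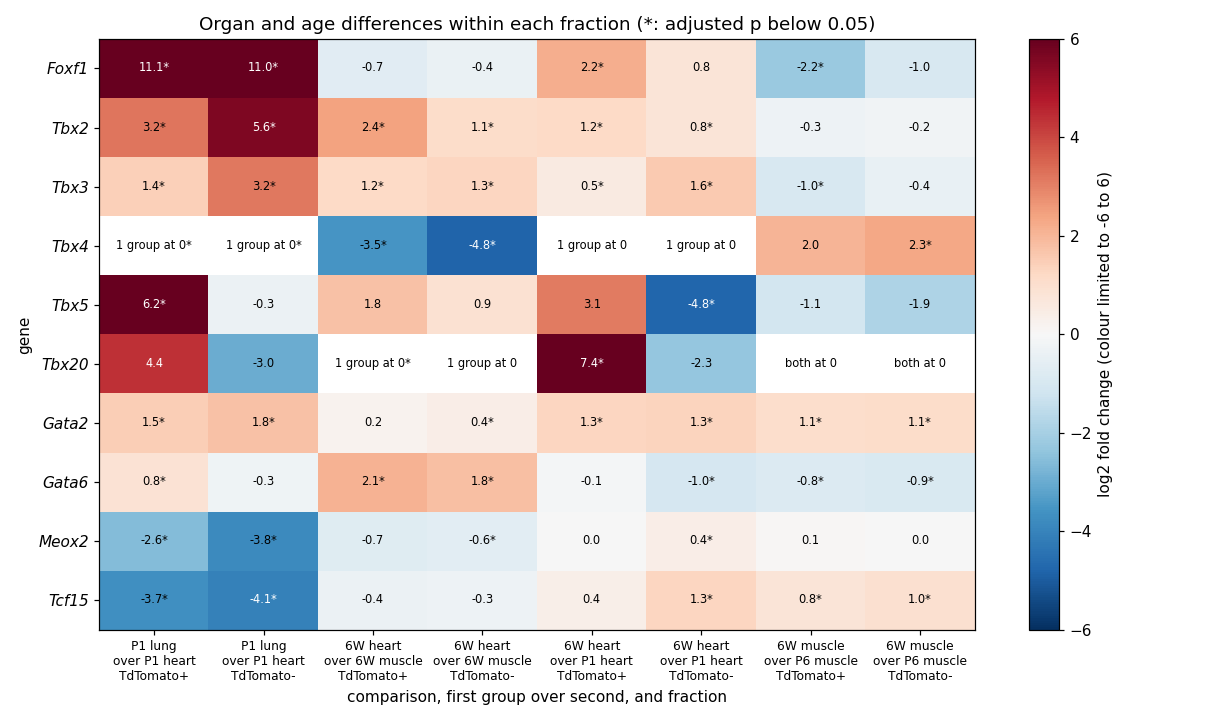
Log2 fold changes of the 10 factors (rows) in the organ and age comparisons (columns, each in TdTomato+ left of TdTomato-), with asterisks for an edgeR adjusted p below 0.05 colour limited to 6 in either direction and uncoloured cells where a group had 0 counts. Foxf1 is 11.15 and 11.02 higher in P1 lung than in P1 heart, and Meox2 and Tcf15 are the pair that is lower in lung in both fractions.

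Meox2 and Tcf15 went the other way at P1. Meox2 was lower in lung than in heart by a log2 fold change of -2.61 ± 0.28 in TdTomato+ and -3.82 ± 0.16 in TdTomato- cells (SE; edgeR adjusted p = 3.15e-07 and 7.34e-15). Tcf15 was lower by -3.68 ± 0.24 in TdTomato+ and -4.07 ± 0.17 in TdTomato- cells (SE; edgeR adjusted p = 1.81e-10 and 1.28e-14). Tbx5 and Gata6 were called different between the organs only in the TdTomato+ fit, at 6.17 ± 1.74 and 0.85 ± 0.21 (log2, SE; edgeR adjusted p = 0.00903 and 0.0031). In TdTomato- cells they stood at -0.33 ± 0.91 and -0.27 ± 0.18 (edgeR adjusted p = 0.811 and 0.27). The TdTomato+ libraries overlapped for Gata6, at 59.2 to 97.3 CPM in lung and 38.3 to 59.7 CPM in heart. The Gata6 call was lost with P1 heart pair 1 included (edgeR adjusted p = 0.181). For Tbx5 and Gata6 the fraction effect itself differed between lung and heart, as given further on. Tbx20 did not pass in either fraction (edgeR adjusted p = 0.066 and 0.145). With lung pairs 6, 7 and 8 left out, a fit added after the data were seen, Tbx5 in TdTomato+ cells lost its call (log2 fold change 5.79 ± 2.01, SE; edgeR adjusted p = 0.0521) and the other 8 TdTomato+ and 7 TdTomato- calls were kept.

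At 6 weeks, 5 of the 10 differed between heart and muscle in TdTomato+ cells (15% of all tested genes) and 6 in TdTomato- cells (21.9%). Tbx20 had the sharpest contrast, at 4.75 ± 3.39 CPM in heart TdTomato+ cells (SD, n = 5) and 0 in all 4 muscle TdTomato+ libraries, which makes it at least 119-fold higher (edgeR adjusted p = 0.00942). Gata6 was higher in heart by 2.1 ± 0.22 in TdTomato+ and 1.79 ± 0.20 in TdTomato- cells (log2, SE), and its heart and muscle libraries did not overlap. Tbx2 and Tbx3 were also higher in heart in both fractions, by 2.42 ± 0.33 and 1.18 ± 0.20 in TdTomato+ and by 1.09 ± 0.23 and 1.27 ± 0.20 in TdTomato- cells (log2, SE). Tbx4 was lower in heart, at -3.53 ± 1.05 in TdTomato+ and -4.78 ± 1.12 in TdTomato- cells (edgeR adjusted p = 0.0286 and 0.00436). The heart counts of Tbx4 come from pair 5 alone; with 1 pair left out the TdTomato+ value ran between -8.16 and -2.82, with the call lost in 5 of 9 fits, and the TdTomato- value between -8.18 and -3.89 with the call kept. In TdTomato- cells Meox2 was lower in heart, at 207 ± 42.0 against 324 ± 47.0 CPM in muscle (SD, n = 5 and 4; edgeR adjusted p = 0.002), and Gata2 higher, at 339 ± 34.7 against 257 ± 20.5 CPM (edgeR adjusted p = 0.00481). In TdTomato+ cells Meox2 averaged 194 ± 41.5 CPM in heart and 316 ± 56.7 CPM in muscle (SD, n = 5 and 4), without overlap, and did not pass (edgeR adjusted p = 0.0801). The fraction effect of neither gene was called different between heart and muscle. All 6W muscle libraries and heart pairs 5 and 6 came from 1 sequencing run. Within that run Gata6 differed by 2.09 and 1.89, Tbx3 by 1.58 and 1.55 and Tbx2 by 1.90 and 1.3 on the log2 scale in TdTomato+ and TdTomato- cells (edgeR adjusted p of 0.0376 or less), while Tbx4, Meox2 and Gata2 did not pass (lowest edgeR adjusted p = 0.128).

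Age was compared within an organ, in heart between 6W and P1 and in muscle between 6W and P6. Gata2 rose with age in both organs and both fractions. In heart it was higher at 6W by 1.3 ± 0.15 in TdTomato+ and 1.32 ± 0.10 in TdTomato- cells (log2, SE; edgeR adjusted p = 3.6e-07 and 1.97e-10), and in muscle by 1.06 ± 0.14 and 1.11 ± 0.10 in the same fractions (edgeR adjusted p = 5.7e-06 and 3.47e-09). None of the 6W libraries overlapped the neonatal ones. Gata2 was 1 of 5 of the 10 called in heart TdTomato+ cells (43% of all tested genes), of 7 in heart TdTomato- cells (49.3%), of 5 in muscle TdTomato+ cells (34%) and of 4 in muscle TdTomato- cells (42.5%).

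Other members changed with age in some organs and fractions. Foxf1 fell in muscle TdTomato+ cells, to 3.35 ± 1.91 CPM at 6W against 15.8 ± 0.916 CPM at P6 (SD, n = 4 and 5), a log2 fold change of -2.25 ± 0.46 (SE; edgeR adjusted p = 0.000606), with no overlap. In heart TdTomato+ cells Foxf1 rose by 2.18 ± 0.63 (log2, SE; edgeR adjusted p = 0.00788), to 2.08 ± 1.44 CPM at 6W against 0.470 ± 0.493 CPM at P1 (SD, n = 5 and 4), and the ages overlapped. The P1 value rests on 40 counts, and this call was lost with only the groups compared in the fit (edgeR adjusted p = 0.104). Gata6 fell in muscle in both fractions, by a log2 fold change of -0.81 ± 0.21 in TdTomato+ and -0.92 ± 0.19 in TdTomato- cells, and in heart TdTomato- cells by -1.01 ± 0.18 (SE). Tcf15 rose in heart TdTomato- cells by 1.27 ± 0.16 and in muscle by 0.80 ± 0.22 in TdTomato+ and 0.98 ± 0.16 in TdTomato- cells (log2, SE). Its muscle TdTomato+ call was lost without 6W muscle pair 2 (log2 fold change 0.59 ± 0.22, SE; edgeR adjusted p = 0.0514). Tbx3 rose in heart TdTomato- cells by 1.58 ± 0.21, to 149 CPM at 6W against 49.8 CPM at P1, and was lower at 6W in muscle TdTomato+ cells, at -0.95 ± 0.19 (log2, SE). Tbx5 fell in heart TdTomato- cells to 0.165 ± 0.239 CPM at 6W, against 4.39 ± 1.83 CPM at P1 (SD, n = 5 and 4; edgeR adjusted p = 0.000826). In heart TdTomato+ cells Tbx20 had 505 counts at 6W against 2 counts at P1, a ratio of 222 (95% counting interval 61.1 to 1836). The muscle ages were sequenced in different runs, so age and run cannot be told apart there. Within the run shared by P1 heart and 6W heart pairs 1, 2 and 4, the heart calls of Tbx3 in TdTomato+ and of Meox2 in TdTomato- cells were lost (edgeR adjusted p = 0.256 and 0.194) and the other 10 heart calls were kept, with Gata2 at 1.29 in TdTomato+ and 1.37 in TdTomato- cells, Gata6 at -1.04 and Tcf15 at 1.45 in TdTomato- cells (log2).

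In P1 lung, TdTomato+ cells were set against TdTomato- cells of the same pair, to ask how the fraction marked by Abcg2 differs from the rest of the endothelium. Of the 10, 6 differed, where 9.78% of all tested genes did. Foxf1, Tbx2, Tbx3 and Gata2 were lower in TdTomato+ cells. Foxf1 had a log2 fold change of -0.94 ± 0.23, Tbx2 of -1.33 ± 0.25, Tbx3 of -0.84 ± 0.09 and Gata2 of -0.53 ± 0.09 (SE; edgeR adjusted p = 0.00812, 0.000842, 5.25e-07 and 0.000168), each lower in 5 of 5 pairs. The other 2, Meox2 and Tcf15, were higher in TdTomato+ cells by 1.42 ± 0.20 and 1.21 ± 0.14 (log2, SE; edgeR adjusted p = 3.01e-05 and 2.92e-06), each in 5 of 5 pairs. For Foxf1, Tbx2, Tbx3 and Tcf15 no TdTomato+ library reached the range of the TdTomato- libraries.

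**Figure D3:**
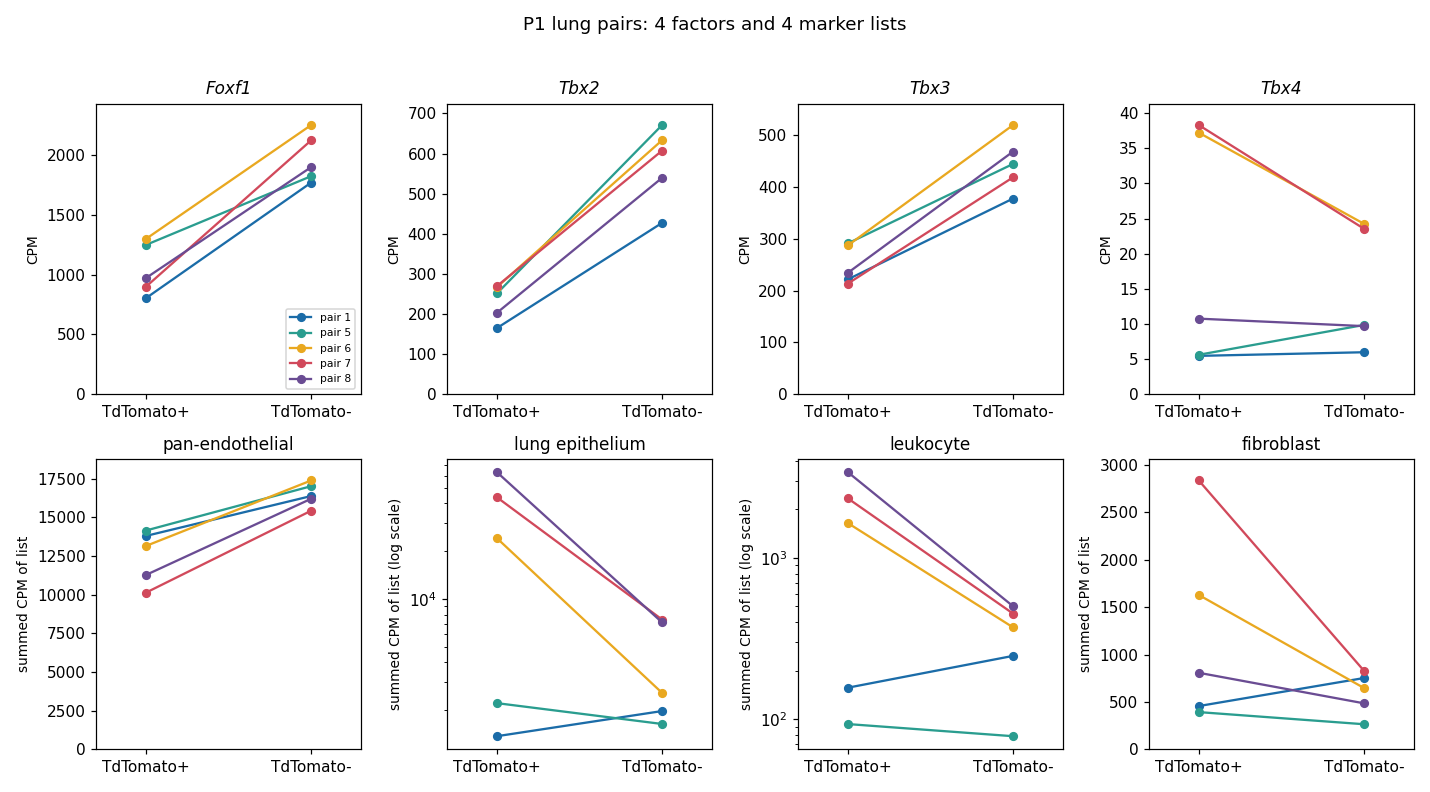
Levels in each of the 5 P1 lung pairs of 4 factors and of the summed levels of 4 marker lists (CPM), TdTomato+ left of TdTomato- with a line joining the libraries of a pair. The epithelial list separates the fractions in pairs 6, 7 and 8 and not in pairs 1 and 5, while the Foxf1 and Tbx2 lines go down towards TdTomato+ in all 5 pairs.

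Because TdTomato+ pairs 6, 7 and 8 held epithelial and leukocyte RNA, the pairs were also read one by one. In pair 1 the epithelial marker sum was 1375 CPM in TdTomato+ and 1979 CPM in TdTomato- cells, and in pair 5 it was 2220 CPM in TdTomato+ and 1641 CPM in TdTomato- cells. The log2 difference of Tbx2 was -1.38 and -1.42 in pairs 1 and 5, and between -1.41 and -1.17 in pairs 6, 7 and 8. That of Foxf1 was -1.14 and -0.55 in pairs 1 and 5, and between -1.24 and -0.79 in the other 3. Tbx3 stood at -0.77 and -0.61 in pairs 1 and 5, and between -1.0 and -0.86 in the others. Meox2 stood at 2.43 and 0.74 and Tcf15 at 1.93 and 0.58 in pairs 1 and 5, against 0.15 to 2.34 and 0.85 to 1.34 in the others. Gata2 stood at -0.42 and -0.23 in pairs 1 and 5, and between -0.92 and -0.52 in the others. Tbx3 and Gata2 thus had smaller differences in pairs 1 and 5 than in each of the other 3. With pairs 6, 7 and 8 left out, a fit added after the data were seen, 3 of the 10 were called: Meox2 at 1.60 ± 0.22, Tcf15 at 1.29 ± 0.24 and Tbx3 at -0.68 ± 0.14 (log2, SE; edgeR adjusted p = 0.00018, 0.00414 and 0.013). With these 2 pairs Tbx2 at -1.39 ± 0.42, Foxf1 at -0.83 ± 0.38 and Gata2 at -0.32 ± 0.12 kept their direction and did not pass (edgeR adjusted p = 0.128, 0.43 and 0.304). The pan-endothelial sum was also lower in TdTomato+ libraries, at 10128 to 14143 CPM against 15421 to 17376 CPM in TdTomato- libraries, and its part in the lower levels of Foxf1, Tbx2, Tbx3 and Gata2 was not tested. The Foxf1 call was lost under DESeq2 (adjusted p = 0.116). In the authors' deposited table, Tcf15 and Meox2 had a false discovery rate of 4.7e-07 and 0.0284 in this comparison, and the other 8 had 0.0948 or more.

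In P1 heart, 6 of the 10 differed between the fractions, where 14.7% of all tested genes did. Tbx2, Tbx3 and Tcf15 were higher in TdTomato+ cells. Tbx3 had 108, 112, 73.2 and 80.7 CPM in TdTomato+ libraries, against 52.8, 53.4, 36.3 and 56.5 CPM in TdTomato- libraries, a log2 fold change of 0.91 ± 0.10 (SE; edgeR adjusted p = 3.79e-06). Tcf15 had 434, 397, 539 and 326 CPM in TdTomato+ libraries, against 250.5, 197, 225 and 242 CPM in TdTomato- libraries, a log2 fold change of 0.87 ± 0.15 (SE; edgeR adjusted p = 0.000433). Both genes were higher in 4 of 4 pairs with no overlap, and so was Tbx2, at 22.8, 32.9, 21.7 and 21.5 CPM in TdTomato+ against 12.5, 8.63, 13.2 and 12.6 CPM in TdTomato- libraries (log2 fold change 1.06 ± 0.30, SE; edgeR adjusted p = 0.0182).

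The cardiac factors Tbx5, Tbx20 and Gata6 were lower in P1 heart TdTomato+ cells, each in 4 of 4 pairs. Gata6 had 59.7, 43.2, 39.4 and 38.3 CPM in TdTomato+ libraries, against 62.9, 81.4, 68.5 and 78.4 CPM in TdTomato- libraries, a log2 fold change of -0.71 ± 0.19 (SE; edgeR adjusted p = 0.0165). Tbx5 had 7 counts in all TdTomato+ and 437 in all TdTomato- libraries (log2 fold change -6.54 ± 1.81, SE; edgeR adjusted p = 0.0182). Tbx20 had 2 counts against 295, so it was 129-fold higher in TdTomato- cells by scaled counts (95% counting interval 35.5 to 1074; edgeR adjusted p = 0.0097). Other marker genes moved with them. The summed level of 8 endocardial marker genes was 239.6 to 357 CPM in TdTomato+ and 809 to 1324 CPM in TdTomato- libraries, and that of 11 fibroblast markers was 44.2 to 397 CPM in TdTomato+ and 599 to 975 CPM in TdTomato- libraries. The sum of 7 lymphatic endothelial markers was 125 to 199 CPM in TdTomato+ and 209.6 to 371 CPM in TdTomato- libraries, and none of the 3 sums overlapped between the fractions. The endocardial list also stood at 2433 to 4754 CPM in lung TdTomato+ and 1285 to 3602 CPM in 6W muscle TdTomato+ libraries. Its sum is thus not particular to endocardium. Gata4 and Gata5, cardiac GATA factors, had log2 fold changes of -2.69 ± 0.47 and -5.53 ± 1.48 (SE; edgeR adjusted p = 0.000743 and 0.0235). The part of endocardial, fibroblast or lymphatic RNA in the 3 lower factors was not tested.

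Only Tbx3 and Tcf15 kept their P1 heart calls without any single pair. Tbx2 lost its call without pair 2 or 3, Tbx5 without pair 2, 3 or 4, Tbx20 without pair 4 (and under DESeq2, adjusted p = 0.388), and Gata6 without pair 3, 4 or 5, all with the direction kept. With RNA integrity in the model, 2 of the 6 calls remained. In the left-out pair 1, the TdTomato+ library had 0.212 CPM of Tbx2, 1.38 of Tbx3, 0.106 of Gata6 and 1.33 of Meox2, against 12.9, 37.0, 84.6 and 121 CPM in its TdTomato- partner (scaled by total count). Its Gata2 and Tcf15 levels were 188 and 243 CPM in the TdTomato+ library, against 212 and 282 CPM in the TdTomato- library. With this pair included, 3 of the 10 were called in P1 heart and 2 in P1 lung, in a fit where all combinations share 1 estimate of the spread. In the authors' deposited table, Tcf15, Tbx5 and Tbx20 had a false discovery rate of 0.000589, 0.00109 and 0.00582 in P1 heart, and the other 7 had 0.067 or more. That table gave Tbx4 a log2 fold change of 1.57 in P1 heart. Every P1 heart library used here had 0 Tbx4 counts, and the left-out TdTomato+ library had 1. The authors' P1 heart values thus drew on the left-out pair and come from another set of libraries than the fits here.

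**Figure D4:**
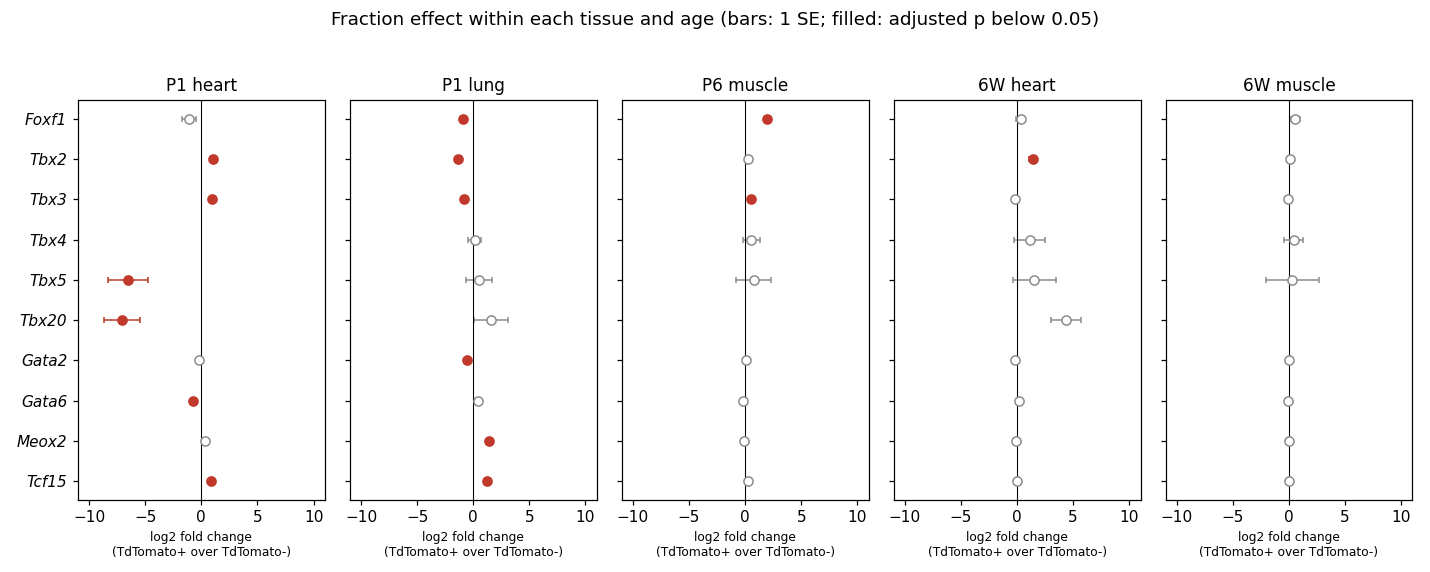
Log2 fold change of TdTomato+ over TdTomato- cells for each factor (bars: 1 SE) in the 5 combinations of organ and age, with filled marks for an edgeR adjusted p below 0.05. Tbx2 and Tbx3 lie below 0 in P1 lung and above 0 in P1 heart, whereas Tcf15 lies above 0 in both.

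Few of the 10 factors differed between the fractions in skeletal muscle and adult heart. In P6 muscle 2 of the 10 were called, where 0.977% of all tested genes were. Foxf1 had 14.8, 15.9, 16.9, 14.9 and 16.4 CPM in TdTomato+ libraries, against 6.14, 5.92, 1.03, 3.34 and 4.78 CPM in TdTomato- libraries. The fractions did not overlap, Foxf1 was higher in TdTomato+ cells in 5 of 5 pairs, and its log2 fold change was 1.98 ± 0.28 (SE; edgeR adjusted p = 0.000286). Its direction was thus the opposite of that in P1 lung. In the authors' deposited table the difference of the Foxf1 effects, P1 lung minus P6 muscle, was -2.81 on the log2 scale. Its false discovery rate was 0.0107, and both organ and age differ in that comparison. The authors' Foxf1 effects taken singly had false discovery rates of 0.0673 in P6 muscle and 0.612 in P1 lung. Marker sums also separated the P6 muscle fractions. The 7 lymphatic genes stood at 163 to 229 CPM in TdTomato+ and 355 to 516 CPM in TdTomato- libraries. The 8 endocardial list genes stood at 1635 to 1777 CPM in TdTomato+ and 971 to 1271 CPM in TdTomato- libraries. These TdTomato+ sums lay above the highest heart library, at 1324 CPM, so the list does not mark endocardium here. The part of both sums in the Foxf1 difference was not tested. Tbx3 was higher by 0.48 ± 0.09 (log2, SE; edgeR adjusted p = 0.006) in 5 of 5 pairs, at 115 ± 24.0 CPM in TdTomato+ and 84.5 ± 26.0 CPM in TdTomato- libraries (SD, n = 5 each), which overlapped. This call was lost without pair 1 and without the pair as a block (edgeR adjusted p = 0.785). In 6W muscle none of the 10 was called by edgeR (0 at an adjusted p below 0.05, where 5.23% of genes passed; DESeq2 also gave 0), and 0 of the 10 had an unadjusted p below 0.05.

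In 6W heart 1 of the 10 was called, Tbx2, where 0.874% of genes were. It stood at 55.2, 95.5, 54.4, 19.7 and 58.3 CPM in TdTomato+ libraries of pairs 1, 2, 4, 5 and 6, and at 25.6, 16.5, 13.2, 23.8 and 22.8 CPM in their TdTomato- partners. TdTomato+ was higher in 4 of 5 pairs and lower in pair 5, and the log2 fold change was 1.37 ± 0.27 (SE; edgeR adjusted p = 0.0135). The summed level of 10 pericyte and smooth muscle markers moved with it, at 1077, 1872, 1262, 307 and 967 CPM in TdTomato+ and 268, 144, 83.3, 382 and 372 CPM in TdTomato- libraries of the same pairs. Pair 5 was the pair in which both Tbx2 and this sum were lower in TdTomato+ cells, and the part of these cells in the Tbx2 difference was not tested. The sum of 11 fibroblast markers was also higher in TdTomato+ libraries, at 273 to 1218 CPM against 107 to 257 CPM in TdTomato- libraries. The Tbx2 call was lost without pair 2, without pair 4 and with RNA integrity in the model (adjusted p = 0.0773). It was also lost with only the 6W heart groups fitted and with P1 heart pair 1 included (edgeR adjusted p = 0.146 and 0.883). In the authors' deposited table Tbx2 had a false discovery rate of 0.0713 in this comparison. Tbx20, higher in TdTomato+ cells in 5 of 5 pairs, did not pass (log2 fold change 4.36 ± 1.31, SE; edgeR adjusted p = 0.163). The endocardial list sum, which is not particular to endocardium, was higher in TdTomato+ cells in the same 5 pairs. It stood at 516, 1244, 607, 614 and 454 CPM in TdTomato+ and 290.4, 389, 563, 570.3 and 416 CPM in TdTomato- libraries. The part of this sum in the Tbx20 values was not tested. Gata4, outside the 10, was higher in TdTomato+ cells by 2.02 ± 0.43 (edgeR adjusted p = 0.0262). Gata2 did not pass either, lower in 5 of 5 pairs at -0.22 ± 0.09 (edgeR adjusted p = 0.263).

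Averaged over the 5 combinations with equal weight, 3 of the 10 differed between the fractions, where 8.39% of genes did. Tcf15 was higher in TdTomato+ cells by 0.47 ± 0.06 (log2, SE; edgeR adjusted p = 3.65e-05) and in 18 of 23 pairs. Gata2 was lower by a log2 fold change of -0.19 ± 0.04 (SE; edgeR adjusted p = 0.00401), in 19 of 23 pairs. Meox2 was higher by 0.30 ± 0.09 (log2, SE; edgeR adjusted p = 0.0274) in 13 of 23 pairs, and this call was lost without P1 heart pair 4 or 6W muscle pair 3. The log2 differences of Meox2 ran between 0.15 and 2.43 in P1 lung pairs and between 0.22 and 0.58 in P1 heart pairs. In P6 muscle, 6W heart and 6W muscle pairs they ran between -0.22 and 0.08, so its mean rests on the P1 organs. With RNA integrity in the model none of the 3 was called.

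Whether the fraction effect itself differed between organs or ages was tested by interaction contrasts. Between P1 lung and P1 heart 6 of the 10 differed, where 11.4% of genes did. Tbx2 and Tbx3 had opposite directions in the 2 organs, and the difference of their effects was -2.39 ± 0.39 and -1.75 ± 0.13 (log2, lung minus heart, SE; edgeR adjusted p = 0.000189 and 1.31e-08). Meox2 and Gata6 differed by 1.07 ± 0.28 and 1.11 ± 0.26 (edgeR adjusted p = 0.0135 and 0.00589), and Tbx5 and Tbx20 were also called, while for Tcf15, higher in TdTomato+ cells of both organs, the difference of 0.34 ± 0.21 did not pass (edgeR adjusted p = 0.33). With 1 pair left out, the Tbx5 call was lost in 6 of 9 fits, the Tbx20 call in 4 of 9, and the Meox2 call without lung pair 7. In heart, 4 of the 10 had an effect that differed between 6W and P1 (8.05% of genes): Tbx3 by -1.07 ± 0.13, Tcf15 by -0.87 ± 0.20 and Gata6 by 0.88 ± 0.26 (log2, 6W minus P1, SE; edgeR adjusted p = 1.94e-05, 0.00734 and 0.0375), and Tbx20, whose P1 TdTomato+ value rests on 2 counts (edgeR adjusted p = 0.00361, but 0.321 by DESeq2). The Gata6 call was lost in 6 of 9 fits that left out a pair and when only the heart groups were fitted (adjusted p = 0.0728). In muscle 1 of the 10 differed between ages, Tbx3 at -0.53 ± 0.14 (1.57% of genes; edgeR adjusted p = 0.0471), and this call was lost in 8 of 9 fits that left out a pair. Between 6W heart and 6W muscle none of the 10 differed by edgeR (2.7% of genes did), with Tbx2 nearest at 1.26 ± 0.41 (edgeR adjusted p = 0.103); DESeq2 gave 1, and Tbx2 was the 1 gene of the 10 with an unadjusted p below 0.05.

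Genes linked to the members in the literature were read from 9 lists, chosen with earlier results of these data known, so their directions are not independent evidence. For the list counts below, the share of all tested genes called for P1 lung over heart was 34.5% in TdTomato+ and 36.9% in TdTomato- cells. Between the fractions it was 9.78% in P1 lung and 14.7% in P1 heart. Of 10 fatty acid uptake genes linked to Meox2 and Tcf15, 8 were lower and none higher in lung than in heart in TdTomato+ cells (median log2 fold change -2.1, against 0.01 over all tested genes), and 8 were lower and 2 higher in TdTomato- cells (median -2.39, against -0.02). Fabp4, a fatty acid carrier, had a log2 fold change of -6.37 ± 0.29 and Aqp7, a glycerol channel, of -5.71 ± 0.23 in TdTomato- cells (SE; edgeR adjusted p = 4.67e-14 and 6.62e-15). Within lung, 5 of the 10 were higher and 2 lower in TdTomato+ cells (median 0.67, against 0.00 over all genes). Aqp7 was higher by 3.55 ± 0.22 and the retinol carrier Rbp7 by 3.40 ± 0.19 (log2, SE; edgeR adjusted p = 8.31e-11 and 2.51e-11). In P1 heart 4 were higher and none lower in TdTomato+ cells (median 0.35, against -0.04), with Rbp7 at 0.87 ± 0.17 and Gpihbp1, which holds lipoprotein lipase on capillaries, at 0.69 ± 0.10 (log2, SE; edgeR adjusted p = 0.00135 and 0.000119).

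Of 8 endothelial genes linked to Foxf1, 4 were lower and none higher in lung TdTomato+ cells (median log2 fold change -0.43, against 0.00 over all genes). Acvrl1, a receptor for bone morphogenetic proteins, had a log2 fold change of -0.81 ± 0.09 and S1pr1, the sphingosine phosphate receptor, of -0.54 ± 0.08 (SE; edgeR adjusted p = 1.04e-06 and 5.04e-05). Kdr, Flt1, Tek and Pecam1 are on both this list and the pan-endothelial list. The pan-endothelial sum was itself lower in lung TdTomato+ libraries, at 10128 to 14143 CPM against 15421 to 17376 CPM in TdTomato- libraries. Its part in these lower values was not tested. Acvrl1 was also higher in lung than in heart, by 4.18 ± 0.15 in TdTomato- cells (log2, SE; edgeR adjusted p = 7.28e-16), where 5 of the 8 were higher and none lower (median 0.65, against -0.02). Of 7 genes linked to GATA2, 2 were lower and 1 higher in lung TdTomato+ cells (median -0.04), where 9.78% of tested genes were called. The growth factor receptor Kdr stood at -0.58 ± 0.14 and the adhesion protein Pecam1 at -0.42 ± 0.09 (log2, SE; edgeR adjusted p = 0.00682 and 0.00184). Kdr and Pecam1 are also on the pan-endothelial list, and the part of its lower sum was not tested.

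Relatives of the 10 factors and other transcription factor lists were read in the same comparisons. Of 13 other T-box genes listed, 6 were in the table, and Tbx1 was the one called lower in P1 heart TdTomato+ cells, at -3.11 ± 0.71 (log2, SE; edgeR adjusted p = 0.00482; median of the 6 -2.34, against -0.04 over all genes). Tbx1 was higher in lung than in heart in both fractions, by 6.68 ± 0.81 in TdTomato+ and 2.85 ± 0.49 in TdTomato- cells (log2, SE; edgeR adjusted p = 1.73e-06 and 7.89e-05). Tbx15, a skeletal muscle T-box gene, had 0 counts in 6W heart and averaged 2.99 ± 1.32 CPM in TdTomato+ and 2.19 ± 1.16 CPM in TdTomato- 6W muscle (SD, n = 4 each). Of 9 GATA genes and partners, 3 were higher and none lower in lung than in heart in TdTomato+ cells (median 0.13). This is near the share over all tested genes, 34.5%. Gata3 led the list at 2.80 ± 0.33 (log2, SE; edgeR adjusted p = 1.33e-06). Between the P1 heart fractions 14.7% of all tested genes were called. Of 10 forkhead and Meox relatives, 3 were lower and 1 higher in P1 heart TdTomato+ cells (median -1.05), led by Foxc1 at -1.72 ± 0.17 (log2, SE; edgeR adjusted p = 6.61e-07). Of 7 basic helix-loop-helix partners and Id genes, 3 were higher and 1 lower there (median 0.24), led by Id1 at 0.78 ± 0.11 (edgeR adjusted p = 3.15e-05). Of 8 cardiac factors 4 were in the table, and 2 of these were lower and 1 higher there (median -1.13), with Mef2c higher at 0.31 ± 0.08 (edgeR adjusted p = 0.0146). Of 17 general endothelial transcription factors 7 were higher and none lower there (median 0.24), led by Sox17 at 0.80 ± 0.09 (edgeR adjusted p = 2.34e-06), while in lung 1 was higher and 2 lower (median -0.13).

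The genes whose levels followed each member most closely over the 46 libraries were found by Pearson correlation of log2 CPM, as a description with no test, since libraries share organs, pairs and runs. Meox2 was followed by Ablim3 (r = 0.98) and Ctnnbip1 (r = 0.97), and Tcf15 by Slc28a2 and Eepd1 (r = 0.97 each). For Foxf1 they were Rasgef1a and its neighbour Fendrr (r = 0.95 each), and for Gata2 Plekha2 (r = 0.95) and Tmcc2 (r = 0.93). Tbx2 was followed by Tspan8 and Inafm2 (r = 0.92 each), Tbx3 by Adgre5 (r = 0.91) and Krt80 (r = 0.90), and Gata6 by Pard3 and Nostrin (r = 0.91 each). Tbx4 was followed by Cbr2 (r = 0.91) and Hoxa5 (r = 0.90). Correlations were lower for Tbx5, with Lsr and Glp1r (r = 0.82 each), and for Tbx20, with Pla2g7 (r = 0.79) and Colec11 (r = 0.78). Among the members, the closest pair after Meox2 and Tcf15 were Tbx2 with Tbx3 and Foxf1 with Tbx4 (r = 0.87 each), and the most opposed were Tbx2 with Meox2 (r = -0.92) and Foxf1 with Tcf15 (r = -0.89).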

How the data were processed

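RNA of 48 sorted libraries was sequenced in 2 runs, and 46 libraries in 23 pairs were used. Per the submitters' processing notes, reads were processed with STAR, featureCounts and edgeR on build mm10. The sources used here give no versions, strand setting or gene filter. The deposited table gives raw read counts per gene, the authors' log2 RPKM per library, and log2 fold changes and p-values (as false discovery rates) of the authors' comparisons. RNA integrity numbers, a quality score, and a batch number were taken from the deposited run sheets, of which 2 rows of other samples were not used. The run sheets and the labels name different library kits.

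Counts were analysed in R 4.3.3 with edgeR 4.0.16 and limma 3.58.1 (TMM, low-count filter, quasi-likelihood test, Benjamini-Hochberg threshold of 0.05 over all tested genes). The fraction effects came from 1 fit of 46 libraries and 15557 genes (12 removed) with the pair as a block. Organs and ages were compared within a fraction (23 libraries; 14966 genes in TdTomato+ and 14802 in TdTomato- cells). Standard errors were derived from each fold change and its F statistic (absolute value over the root of F), and log2 CPM for correlations used a prior count of 2. The labels give the pairing as matched fractions, and in 22 of 23 pairs the deviations from the group means correlated above 0.1 (median 0.32 over 9451 genes). In 18 pairs the best match was the library's own partner. It was not in P6 muscle pairs 2, 4 and 5, 6W heart pair 2 and 6W muscle pair 4. Total counts of 17512843 to 27622937 limit the precision of scarce genes, and counting intervals cover counting error only. Scripts were tested on simulated data.

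The 10 factors and all lists were chosen with earlier results of these data known. All 10 are named, with the 2 named genes nearest to each by correlation and up to 2 called genes with the smallest p from each list in a comparison. Alternatives were DESeq2 1.42.0, other scaling and filters, RNA integrity as a covariate, P1 heart pair 1 included, no block, only the groups compared, 1 run only, each pair left out and, added after the data were seen, P1 lung pairs 6, 7 and 8 left out.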

Additional observations from a re-analysis of the deposited data

Results flagged for a closer look

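Among 77 groups of 4 or 5 libraries with a mean of at least 1 CPM, 5 held a library far from the others, where chance alone gives about 1 group in 20. Foxf1 stood at 0.493 CPM in 6W muscle TdTomato+ replicate 5, against 4.06 to 4.54 CPM in the others. Tbx2 was far from the rest in both fractions of P1 heart pair 3, at 32.9 CPM in the TdTomato+ library (others 21.5 to 22.8 CPM) and 8.63 CPM in the TdTomato- library (others 12.5 to 13.2 CPM). Gata2 stood at 149 CPM in P1 heart TdTomato- replicate 5 (others 129.7 to 132 CPM), and Tcf15 at 939.8 CPM in 6W muscle TdTomato+ replicate 2 (others 595 to 651 CPM).

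The effect of the fraction differed between ages or organs in 11 edgeR interaction contrasts with Benjamini-Hochberg adjustment. Between 6W and P1 heart the difference of log2 effects was 0.88 for Gata6, -0.87 for Tcf15, -1.07 for Tbx3 and 11.42 for Tbx20 (adjusted p = 0.0375, 0.00734, 1.94e-05 and 0.00361), and between 6W and P6 muscle it was -0.53 for Tbx3 (adjusted p = 0.0471). Between P1 lung and P1 heart it was -2.39 for Tbx2, -1.75 for Tbx3, 1.07 for Meox2, 1.11 for Gata6, 7.03 for Tbx5 and 8.63 for Tbx20 (adjusted p = 0.000189, 1.31e-08, 0.0135, 0.00589, 0.0345 and 0.0334). The Tbx20 and Tbx5 differences rest on 2 and 7 counts in P1 heart TdTomato+ cells, and their size depends on the fit. With 1 pair left out, the P1 lung and heart calls were lost in 6 of 9 fits for Tbx5, in 4 of 9 for Tbx20 and without lung pair 7 for Meox2, and the 6W and P1 heart call of Gata6 was lost in 6 of 9 fits.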

How the results depend on the processing

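No log2 fold change of a called factor reversed under any alternative run: 463 kept their call and 78 lost it under other settings, and 611 kept and 58 lost it with 1 pair left out. The cause of lost calls was not tested. Counts below are of genes called, with the factors among the 10 given where their number moved by over 1.5 times. The fits above called 2289 genes in P1 heart, 1522 in P1 lung, 152 in P6 muscle, 136 in 6W heart, 813 in 6W muscle and 1306 in the mean, and 1252, 244, 1773 and 420 in the heart, muscle, P1 and 6W interactions.

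Without the replicate block, the counts were 1118 in P1 heart, 752 in P1 lung, 26 in P6 muscle (1 factor), 87 in 6W heart, 254 in 6W muscle, 384 in the mean (1 factor), 671 and 4 in the heart and muscle interactions (0 factors in muscle), and 1034 and 16 in the P1 and 6W interactions. Calls lost without the block were Tbx20 in P1 heart (adjusted p = 0.0559), Foxf1 in P1 lung (0.121), Tbx3 in P6 muscle (0.785), Gata2 and Meox2 in the mean (0.0598 and 0.0574), Gata6 in the heart interaction (0.0635), Tbx20 in the P1 interaction (0.084) and Tbx3 in the muscle interaction (0.658). Fitting only the groups compared, with the block, gave 447 in P1 heart, 741 in P1 lung, 443 in P6 muscle, 19 in 6W heart (0 factors), and 560, 752 and 1021 in the heart, muscle and P1 interactions.

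With P1 heart pair 1 included, counts were 1342 in P1 heart (3 factors), 154 in P1 lung (2), 7 in P6 muscle (0), 1 in 6W heart (0), 8 in 6W muscle, 132 in the mean (1), and 507 (2), 2 (0), 616 (0) and 0 in the heart, muscle, P1 and 6W interactions. In TdTomato+ cells this fit gave 317 (2 factors) for 6W heart over muscle, 3572 (3) for heart age and 1097 (3) for muscle age. With RNA integrity as a covariate, counts were 737 in P1 heart (2 factors), 27 in 6W heart (0), 88 in the mean (0) and 815 in the 6W interaction, with 0 factors in the muscle interaction. DESeq2 called 321 in P6 muscle, 552 in 6W heart, 1405 in 6W muscle, 2205 in the mean, and 2074, 721, 2661 and 1074 in the heart, muscle, P1 and 6W interactions (1 factor in the last).

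With P1 lung pairs 6, 7 and 8 left out, chosen after the data were seen, counts were 247 in P1 lung (3 factors), 663 in the mean, 621 in the P1 interaction and 2671 for lung over heart in TdTomato+ cells. Fitting only the groups compared gave 2995 for P1 lung over heart in TdTomato+ cells, 2122 for 6W heart over muscle in TdTomato- cells, and 3 factors for heart age in TdTomato+ cells. Within 1 sequencing run, 6W heart over muscle gave 978 in TdTomato+ and 1064 (3 factors) in TdTomato- cells.

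With 1 pair left out, counts ran between 897 and 3348 in P1 heart (3 to 5 factors), 874 and 1662 in P1 lung, 67 and 86 in P6 muscle (1 to 2), 24 and 285 in 6W heart (0 to 1), 239 and 618 in 6W muscle, 880 and 2176 in the mean, 744 and 2030 in the heart interaction, 50 and 201 in the muscle interaction (0 to 1), and 100 and 572 in the 6W interaction (0 to 1). Scarce genes (Tbx4, Tbx5 and Tbx20) are limited by depth, since values near 0.05 CPM rest on 1 or 2 counts.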
